A study of Mus musculus with 5 samples.

Results

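Complement genes were examined in RNA-seq libraries of mouse dendritic cells with and without the ETS family transcription factor Etv3. The 9 genes were the C1q chains C1qa, C1qb and C1qc, the components C3, Cfb and Cfp, the anaphylatoxin receptors C3ar1 and C5ar1, and the regulator Serping1. They were picked by symbol from a table of 27678 genes, with the Etv3-/- against Etv3+/+ difference of some of them already known. Their difference between genotypes is therefore a description, and nothing is supported with it. For both genotypes, marrow was grown for 6 days in medium holding 20 ng/ml GM-CSF plus 5 ng/ml IL-4, cytokines that yield dendritic cells. Live CD11c+ cells with intermediate CD11b, high MHC class II and no CD115 were sorted to a purity above 95%, and 2 Etv3+/+ and 3 Etv3-/- libraries were made from up to 60000 cells each. No source used here gives the strain, age or sex of the mice, the number of animals behind a library or the disrupted part of Etv3.

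Complement is a cascade of plasma proteins that tags targets for uptake, attracts leukocytes and can lyse membranes. C1q recognises immune complexes, apoptotic cells and other ligands and starts the classical pathway, C3 is the central protein on which all pathways converge, and factor B and properdin belong to the alternative pathway. The liver makes most complement proteins, whereas C1q and properdin come mainly from myeloid cells, among them macrophages and dendritic cells.

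The C1q genes lie side by side on the minus strand of chromosome 4 (GRCm38, 136880129 to 136898803, a stretch of 18.7 kb). Promoter sequence from RefSeq (GRCm38.p6) was matched for 6 of the 9 genes, C1qb, C1qc, C3, C3ar1, C5ar1 and Cfp. The sequences of C1qb, C1qc, C3 and Cfp are shown because these genes were all higher in the Etv3-/- libraries, and to let the motifs be seen in place. Each runs 5′ to 3′ on the minus strand and covers the 250 bases before the RefSeq start, less any part that lies in an annotated exon. Capitals mark GGAAGT, a motif bound by ETS factors, on either strand, where the reverse strand reads ACTTCC. The C3 and Cfp windows hold none. The windows are C1qb at chr4:136886201-136886450, C1qc at chr4:136893066-136893164, C3 at chr17:57228137-57228386 and Cfp at chrX:20931556-20931805.
C1qb: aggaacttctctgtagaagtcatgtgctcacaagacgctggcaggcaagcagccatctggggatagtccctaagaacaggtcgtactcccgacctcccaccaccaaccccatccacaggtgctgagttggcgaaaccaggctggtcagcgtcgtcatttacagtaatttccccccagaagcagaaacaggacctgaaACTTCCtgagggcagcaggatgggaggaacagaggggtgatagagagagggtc
C1qc: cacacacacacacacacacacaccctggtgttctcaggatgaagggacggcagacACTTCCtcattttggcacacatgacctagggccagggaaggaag
C3: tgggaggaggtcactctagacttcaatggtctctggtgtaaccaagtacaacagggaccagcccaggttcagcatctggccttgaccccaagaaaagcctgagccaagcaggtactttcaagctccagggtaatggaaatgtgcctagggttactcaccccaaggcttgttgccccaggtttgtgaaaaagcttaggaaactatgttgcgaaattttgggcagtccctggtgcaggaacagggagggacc
Cfp: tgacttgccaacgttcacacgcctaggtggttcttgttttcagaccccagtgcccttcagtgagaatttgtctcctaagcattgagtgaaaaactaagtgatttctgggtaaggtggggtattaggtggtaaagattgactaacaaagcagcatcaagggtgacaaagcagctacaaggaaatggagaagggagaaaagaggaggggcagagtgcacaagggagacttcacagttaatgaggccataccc
In the 250 bases before the start, GGAAGT was found 1 time in C1qb and 1 time in C1qc, 2 times in C5ar1, and not in C3, C3ar1 or Cfp. Both C5ar1 matches, at bases 61 and 179 of its window, lie past the 48 bases that precede the annotated gene. Of 32851 mouse promoter windows of that length, 19.7% held it. The letters GGAA followed after any 2 bases by GAAA, a composite ETS and IRF motif, were found in none of the 6, against 2.30% of all windows. A match is a string of letters and not a shown site, and the presence of GGAAGT did not separate the genes that were higher from those that were not.

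Depth was 42983550 to 68253936 recovered reads per library. The mitochondrial share was 1.98% and 6.64% in Etv3+/+ and 1.10% to 3.17% in Etv3-/-. Etv3 itself (chromosome 3, 87525407 to 87540156) was at 23050 and 25447 normalized counts in Etv3+/+ and at 18691, 20416 and 22856 in Etv3-/-. A total over the gene does not check a knockout whose deleted part is unknown, so genotypes are as labelled. Of 13813 genes tested, 165 or 1.19% passed the threshold of an adjusted p under 0.05 (limma with Benjamini-Hochberg adjustment over all genes). A normalized count is the authors' read count divided by a factor for its library. Libraries of a genotype are not said to come from separate animals or cultures, so errors and p-values cover the variation among these 5 samples alone, and it may be technical.

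Transcripts of C1q, C3 and properdin were several-fold higher in Etv3-/- cells, while those of the anaphylatoxin receptors and of factor B did not pass the test, and C1 inhibitor was not detected. Of the 9 genes 8 were tested. In limma 5 of the 8 passed upward (C1qa, C1qb, C1qc, C3 and Cfp) and 0 downward, with 5 of the 8 at an unadjusted p under 0.05, and edgeR and DESeq2 each gave 5 upward and 0 downward. Over all genes tested 1.19% passed in limma, 0.876% upward and 0.319% downward. Of the 13813 genes, 2480 had an unadjusted p under 0.05 in limma. In edgeR 114 passed upward and 44 downward, and in DESeq2 636 and 533. The groups did not overlap for 6 of the 8, all with Etv3-/- above, where 36.0% of all genes tested did not overlap and 16.7% had Etv3-/- above. The median log2 fold change was 1.90 over the 8 genes and -0.06 over all genes tested. These counts describe genes that were chosen with the difference known. In bulk RNA, more cells of a type and more RNA per cell cannot be told apart.

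C1qa, which encodes the A chain of the C1q hexamer, gave 107 and 62.5 normalized counts in Etv3+/+ cells against 636, 692 and 1224 in Etv3-/- cells. The lowest Etv3-/- value was well above the highest Etv3+/+ value, and replicate 3 was the highest of all. The log2 fold change was 3.30 (95% interval 2.16 to 4.43), from 84.8 ± 31.6 (SD, n = 2) to 851 ± 325 (SD, n = 3). These values rest on 115 and 73 reads in Etv3+/+ and on 559 to 1396 reads in Etv3-/-.

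C1qb, the B chain, had 774 and 776 normalized counts in Etv3+/+ and 2409, 2946 and 5234 in Etv3-/-. The Etv3+/+ libraries were nearly equal, while Etv3-/- replicate 3 stood above replicates 1 and 2. The log2 fold change was 2.11 (95% interval 1.30 to 2.91). C1qc, the C chain, had 281 and 416 in Etv3+/+ and 1995, 1895 and 2355 in Etv3-/-. Here the Etv3-/- libraries lay close together, at 2082 ± 242 (SD, n = 3) against 348 ± 95.7 (SD, n = 2), with a log2 fold change of 2.60 (95% interval 1.90 to 3.30).

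**Figure D1:**
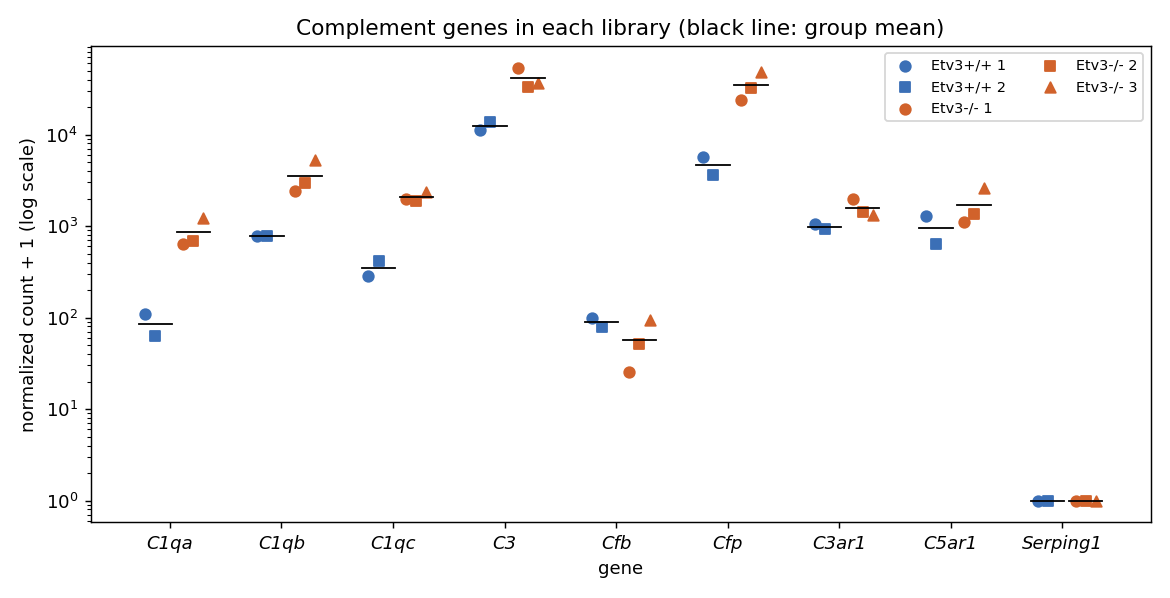
Normalized count + 1 (vertical log axis) of the 9 complement genes in each of the 2 Etv3+/+ (blue) and 3 Etv3-/- (orange) libraries, with black lines at the group means. C1qa, C1qb, C1qc, C3, Cfp and C3ar1 have all Etv3-/- points above the Etv3+/+ points, Cfb and C5ar1 overlap, and Serping1 is at 0 in all libraries.

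The C1q chains assemble into one protein in equal numbers, so the balance of their transcripts was described as well. Divided by the length of the longest annotated transcript, C1qb made up 67.9% and 63.7% of the summed C1q level in Etv3+/+ and 49.4%, 54.7% and 60.5% in Etv3-/-. C1qa made up 9.84% and 5.37% in Etv3+/+ and 13.6%, 13.5% and 14.8% in Etv3-/-. C1qc made up 22.3% and 30.9% in Etv3+/+ and 37.0%, 31.8% and 24.6% in Etv3-/-. The share of C1qa was thus larger and that of C1qb smaller in each Etv3-/- library than in either Etv3+/+ library, whereas the shares of C1qc overlapped. C1qb was the most abundant chain per length in all 5 libraries.

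**Figure D2:**
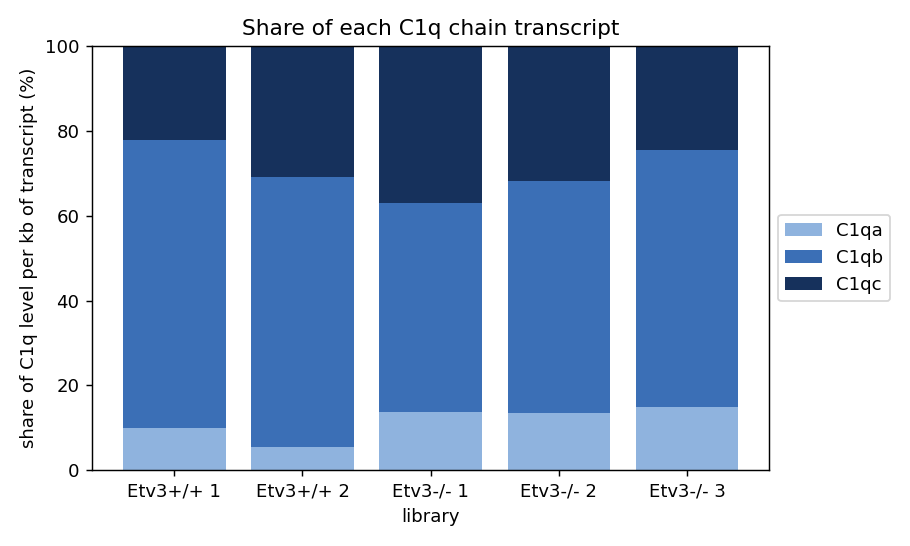
Share of each C1q chain in the summed C1q level per kb of transcript (vertical axis, percent) in each library (horizontal axis). C1qa takes 5.37% to 9.84% in the 2 Etv3+/+ libraries and 13.5% to 14.8% in the 3 Etv3-/- libraries, and C1qb is the largest share throughout.

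C3 is cleaved to C3b, which coats targets, and to the anaphylatoxin C3a. C3 (chromosome 17, 57203970 to 57228136) had 11258 and 13872 normalized counts in Etv3+/+ and 54023, 33309 and 36246 in Etv3-/-. All Etv3-/- values were higher, and replicate 1 was the highest, unlike for the C1q chains. The log2 fold change was 1.69 (95% interval 1.08 to 2.30), from 12565 ± 1848 (SD, n = 2) to 41193 ± 11208 (SD, n = 3).

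Cfp encodes properdin, which stabilises the C3 convertase of the alternative pathway. Cfp (chromosome X, 20925454 to 20931555) had 5671 and 3651 normalized counts in Etv3+/+ and 23627, 32336 and 47916 in Etv3-/-. As for C1qa and C1qb, Etv3-/- replicate 3 was highest and replicate 1 lowest of the 3. The log2 fold change was 2.87 (95% interval 2.10 to 3.64), from 4661 ± 1429 (SD, n = 2) to 34626 ± 12305 (SD, n = 3).

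Cfb encodes factor B, the protease that pairs with C3b in the alternative pathway. It was low, at 97.9 and 78.7 normalized counts in Etv3+/+ and 24.7, 50.8 and 93.8 in Etv3-/-. The groups overlapped, and the log2 fold change of -0.82 had a 95% interval from -2.74 to 1.09, which spans both directions. GENCODE M21 annotates another gene, Gm20547, over Cfb on the same strand, so its reads are uncertain.

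The anaphylatoxin receptors are G protein-coupled receptors for C3a and C5a. C3ar1 (chromosome 6, 122847138 to 122856161) had 1051 and 922 normalized counts in Etv3+/+ and 1982, 1437 and 1322 in Etv3-/-. The groups did not overlap, but the log2 fold change of 0.66 had a 95% interval of -0.002 to 1.32 and did not pass. C5ar1 (chromosome 7, 16246743 to 16259540) had 1280 and 641 in Etv3+/+ and 1104, 1362 and 2579 in Etv3-/-. The ranges overlapped, Etv3-/- replicate 3 stood apart from the rest, and the log2 fold change was 0.79 (95% interval -0.24 to 1.83).

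Serping1 encodes C1 inhibitor, which inactivates the proteases bound to C1q. It had 0 reads in all 5 libraries. A total of 0 reads allows up to 3 reads over a group, or 1.34 normalized counts in Etv3+/+ and 1.04 in Etv3-/-, which covers counting error only, since PCR copies are not separate molecules.

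Levels were ranked per kb of the longest annotated transcript. In Etv3+/+ the order of mean levels was Cfp at 2849 normalized counts per kb, C3 at 2446, C1qb at 712, C5ar1 at 378, C1qc at 289, C3ar1 at 229, C1qa at 81.6 and Cfb at 32.1. Values of Cfp and C3, of C5ar1 and C1qc, and of C1qc and C3ar1 overlapped there. In Etv3-/- the order was Cfp at 21165, C3 at 8020, C1qb at 3244, C1qc at 1730, C1qa at 818, C5ar1 at 662, C3ar1 at 367 and Cfb at 20.5. Values of C1qa and C5ar1 and of C5ar1 and C3ar1 overlapped, and the other neighbours in the order did not. Per kb, Cfp and C3 overlapped in Etv3+/+ and did not in Etv3-/-. The ratio of Cfp to C3 in unscaled normalized counts was 0.504 and 0.263 in Etv3+/+ and 0.437, 0.971 and 1.32 in Etv3-/-, which overlap.

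The other complement genes were read from a list of 57 symbols grouped by role, of which 30 were tested, 20 had no reads in any library and 7 had too few. Of the 30, 1 rose (Itgb2) and 0 fell in limma, against 0.876% and 0.319% of all genes tested. In limma 8 had an unadjusted p under 0.05, as did 2480 of all 13813 genes tested. In edgeR 1 rose and 0 fell. In DESeq2 4 rose and 0 fell, with Itgam, Cd46 and Scarf1 added. Over all 13813 genes 114 rose and 44 fell in edgeR, and 636 and 533 in DESeq2. The median log2 fold change was 0.34 for the 30 and -0.06 for all genes tested. Values of Etv3-/- lay above those of Etv3+/+ without overlap for 8 and below for 2, where all genes tested gave 16.7% above and 19.3% below.

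Itgb2 encodes the shared beta chain of the leukocyte integrins, which pairs with the products of Itgam and Itgax to form the iC3b receptors CR3 and CR4. Itgb2 had 11446 and 7384 normalized counts in Etv3+/+ and 28643, 23517 and 26430 in Etv3-/-. It rose by a log2 fold change of 1.51 (95% interval 0.94 to 2.07, limma adjusted p = 0.0356), with all 3 Etv3-/- libraries above both Etv3+/+ libraries. The call was lost in limma without trend (adjusted p = 0.162). It was kept without Etv3+/+ replicate 1 (limma adjusted p = 0.0413) and lost without each of the other libraries in turn (limma adjusted p = 0.1045 to 0.157). Itgam, the alpha chain of CR3 and the CD11b of the sort, had 726 and 709 in Etv3+/+ and 1732, 1637 and 1855 in Etv3-/- and did not pass (log2 fold change 1.28, limma adjusted p = 0.0635). Since cells were sorted on CD11b and CD11c, the gates also bear on Itgam and Itgax. Itgax, the alpha chain of CR4, had 9808 and 10549 against 14061, 10505 and 16076 (log2 fold change 0.39, limma adjusted p = 0.421). C5ar2, the second C5a receptor, had 23.3 and 2.57 against 36.6, 85.5 and 50.9 (limma adjusted p = 0.302), and Cr2 and Vsig4 had no reads.

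**Figure D3:**
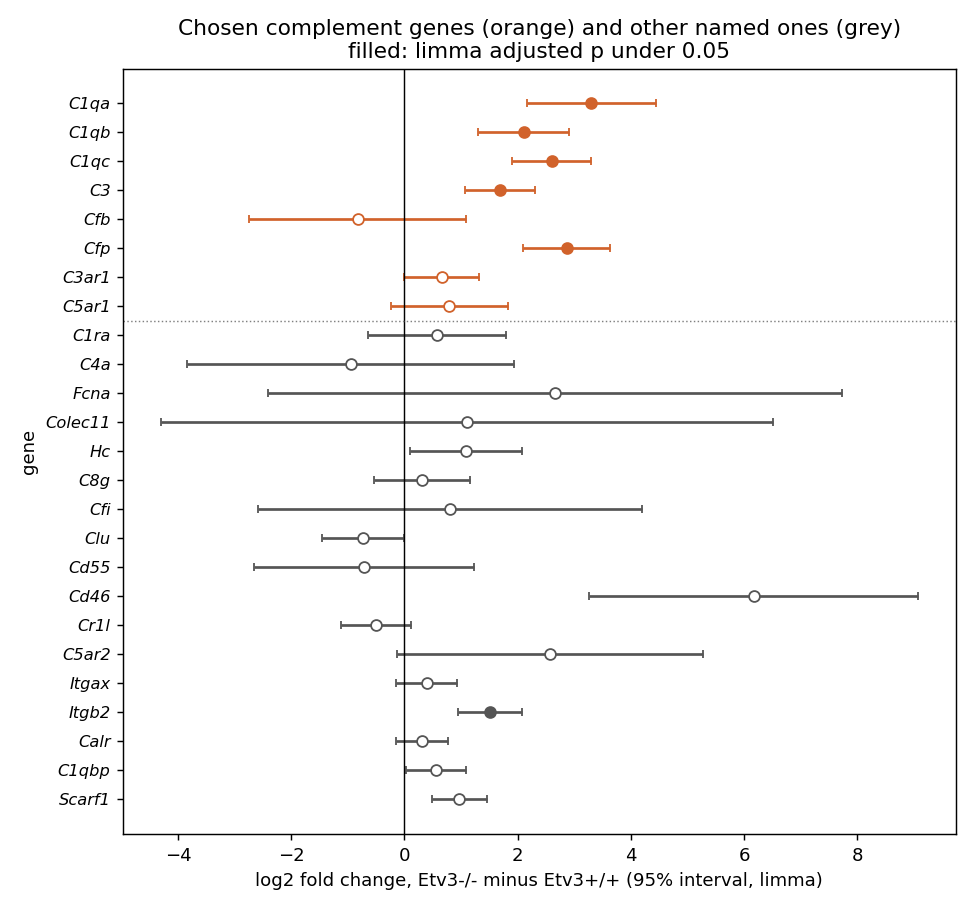
Log2 fold change, Etv3-/- minus Etv3+/+, with 95% intervals (limma, horizontal axis), for the 8 tested genes of the chosen set (orange) and 17 other named complement genes (grey), filled where the adjusted p was under 0.05. C1qa, C1qb, C1qc, C3 and Cfp lie between 1.69 and 3.30, and Itgb2 at 1.51 is the single filled point among the grey ones.

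Classical pathway partners of C1q were scarce. C1ra, a protease of the C1 complex, had 231 and 174 normalized counts in Etv3+/+ and 342, 181 and 431 in Etv3-/- (limma adjusted p = 0.603). C4a was at 73.6 and 26.5 against 54.9, 4.95 and 37.7 (limma adjusted p = 0.730), and C4b and C1rb had no reads, although reads of such near-identical copies cannot be assigned with certainty. Neither C1ra nor C4a passed, and 0 of the 4 tested genes of this group did. Of the lectin pathway, 4 of 9 genes were tested and 0 passed. Fcna, a ficolin, was at 0 and 3.42 against 47.3, 0 and 47.4 normalized counts, and Colec11, a collectin, at 33.6 and 0 against 26.9, 0 and 71.9. These libraries do not order by genotype. Cfd, the factor D protease of the alternative pathway, had no reads.

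Among terminal components 3 of 7 were tested and 0 passed. Hc, which encodes C5, had 156 and 171 normalized counts in Etv3+/+ and 341, 365 and 338 in Etv3-/- (log2 fold change 1.09, 95% interval 0.10 to 2.08, limma adjusted p = 0.242). The Etv3-/- values lay above both Etv3+/+ values, but the difference did not pass over all genes. C8g was at 441 ± 108 and 540 ± 76.4 (limma adjusted p = 0.704), and C7, C8b and C9 had no reads. C8g and Hc are overlapped by annotated genes on the opposite strand, and if counting ignored strand, reads of both genes would be mixed.

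Of the regulators, 9 of 19 were tested and 0 passed. Clu encodes clusterin, a soluble inhibitor of the terminal complex with other functions, and had 31379 and 39154 normalized counts in Etv3+/+ and 14421, 21883 and 29379 in Etv3-/- (log2 fold change -0.74, limma adjusted p = 0.271). Cr1l encodes Crry, the main membrane regulator of C3 convertases in mice, and had 4976 and 5929 against 3902, 5002 and 2922 (limma adjusted p = 0.377). Cd55, a decay accelerator, had 363 and 572 against 819, 281 and 92.1 (limma adjusted p = 0.696). Cfi, the protease factor I, was at 23.7 ± 16.6 and 73.8 ± 82.9 (limma adjusted p = 0.821). Cd46 had no reads in both Etv3+/+ libraries and 83.9, 114 and 36.8 normalized counts in Etv3-/-. That is at least 58.4-fold higher against a floor of 3 reads over the Etv3+/+ group, but Cd46 did not pass (limma adjusted p = 0.0665), although it did in limma without trend (adjusted p = 0.0304), and several annotated transcripts overlap it.

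Genes of proteins that bind C1q or its complexes numbered 7, of which 6 were tested and 0 passed. Calr encodes calreticulin, at 8112 ± 539 (SD, n = 2) and 10044 ± 1101 (SD, n = 3) normalized counts (limma adjusted p = 0.453). C1qbp, a mostly mitochondrial C1q binding protein, was at 5096 and 5054 against 8997, 6050 and 7689 (limma adjusted p = 0.253). Scarf1, a scavenger receptor for C1q on apoptotic cells, was at 1942 and 1723 against 3615, 3342 and 3809 (log2 fold change 0.97, limma adjusted p = 0.0787). For these 3 of the 6 tested genes all Etv3-/- values lay above the Etv3+/+ values, without passing. Over all genes tested 16.7% lay above in this way.

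Transcription factors known to act at complement promoters were read as well. Of the 9 given here 0 passed in limma, with 1 at an unadjusted p under 0.05, and 0 passed in edgeR or DESeq2. Rxra, a nuclear receptor, had 522 and 932 normalized counts in Etv3+/+ and 1295, 1643 and 1513 in Etv3-/- (log2 fold change 1.08, limma adjusted p = 0.161). All Etv3-/- values of Rxra, Nfkb1, Cebpb and Irf1 lay above both Etv3+/+ values, and those of Irf8 lay below. Over all genes tested 16.7% lay above and 19.3% below in this way. The log2 fold changes of Spi1, Irf8, Rela, Nfkb1, Cebpb and Irf1 were 0.21, -0.33, -0.28, 0.27, 0.41 and 0.40 in that order. Ppard was low, at 54.0 ± 15.9 (SD, n = 2) and 58.1 ± 33.7 (SD, n = 3) normalized counts, and so was Nr1h3, at 14.5 ± 20.6 and 29.5 ± 25.7.

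C1q and several receptors are also macrophage genes, so marker lists were read beside them. Of 24 macrophage markers 20 were tested and 0 passed in limma, with 8 at an unadjusted p under 0.05. In edgeR 0 passed and in DESeq2 7, all upward. Of all 13813 genes tested, 2480 had an unadjusted p under 0.05 in limma, and 636 passed upward in DESeq2. Their median log2 fold change was 1.27, and 8 of the 20 lay above in Etv3-/- without overlap, against 16.7% of all genes tested. Their summed level was 87310 to 92456 normalized counts in Etv3+/+ and 92848 to 134286 in Etv3-/-. Csf1r, whose product CD115 was absent from the sorted cells, had 1018 and 1348 normalized counts in Etv3+/+ and 3493, 2403 and 2889 in Etv3-/- (limma adjusted p = 0.0683). Of the abundant markers, Lyz2 was at 23761 ± 605 and 38021 ± 7173 and Gpnmb at 52652 ± 2332 and 47937 ± 24857. Adgre1, which encodes F4/80, had 2069 and 1401 against 4032, 3139 and 2822 (limma adjusted p = 0.141). Among markers of tissue macrophages, Timd4 and Marco had no reads, Lyve1 and Folr2 had reads in Etv3-/- replicate 1 alone, and Cd163 was at 0 in Etv3+/+ and at 16.1, 11.1 and 0 in Etv3-/-. Other macrophage markers had reads in both groups. Cd5l had 0.932 and 104 against 241, 96.6 and 203 (limma adjusted p = 0.280). Ms4a7 had 48.5 and 98.4 against 183, 400 and 441, and Trem2 1522 and 1207 against 4108, 2753 and 2824 (limma adjusted p = 0.143 and 0.0800). Of the 20 tested markers 15 had a log2 fold change above 0 and 5 below. The summed C1q counts per Csf1r count were 1.14 and 0.931 in Etv3+/+ and 1.44, 2.30 and 3.05 in Etv3-/-, and per Adgre1 count 0.561 and 0.896 against 1.25, 1.76 and 3.12. In each Etv3-/- library these ratios to Csf1r and Adgre1 lay above both Etv3+/+ values. The C1q genes and both denominators were chosen with values known, and ratios to the other macrophage markers were not computed. Log2 fold changes were 1.30 for Csf1r, 0.95 for Adgre1, 1.23 for Trem2, 2.19 for Ms4a7 and 3.57 for Cd5l. Those of C1qa, C1qb and C1qc were 3.30, 2.11 and 2.60, so not every marker rose less than each chain. The ratios therefore hold for Csf1r and Adgre1 and do not stand for the whole marker list. The part of macrophage RNA in the C1q values was not tested.

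**Figure D4:**
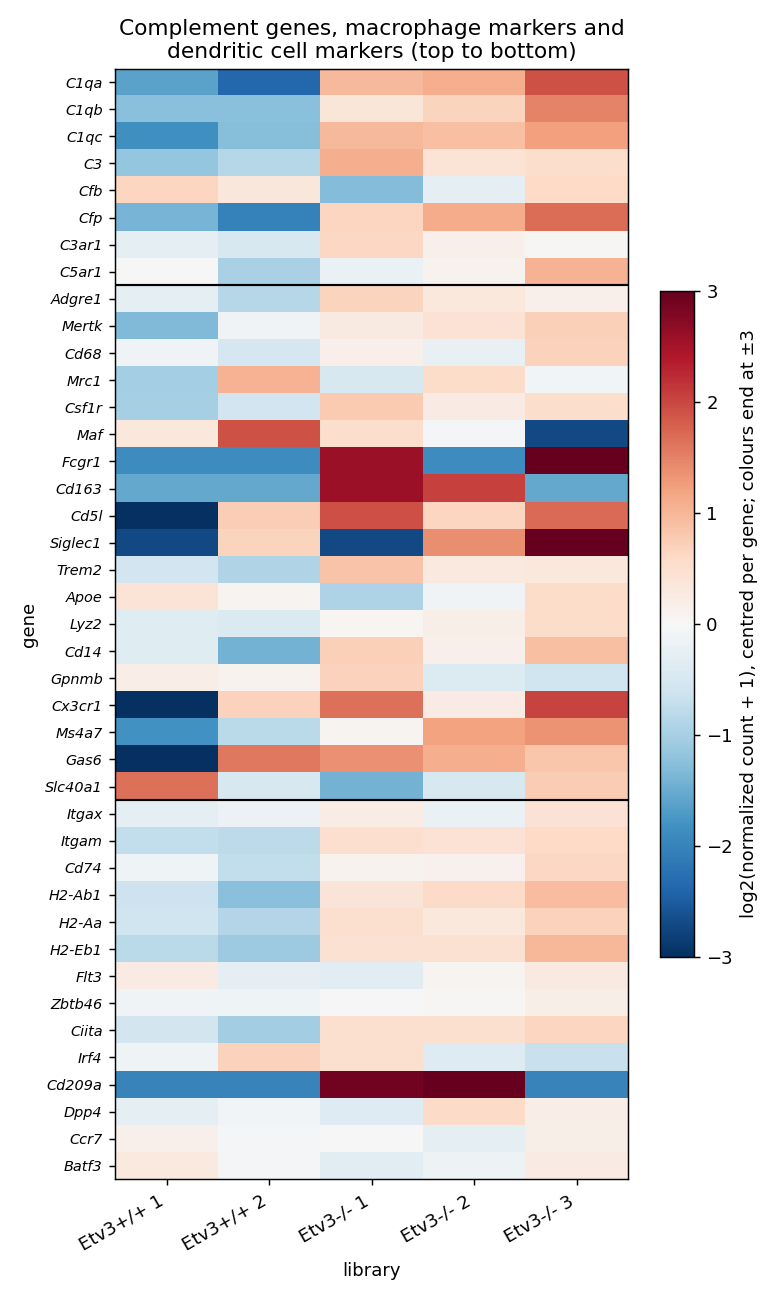
Colour gives log2(normalized count + 1), centred per gene, in each of the 5 libraries (columns) for the 8 tested complement genes, tested macrophage markers and 14 dendritic cell markers (rows, top to bottom). C1q, C3 and Cfp are higher in the 3 Etv3-/- libraries, Adgre1, Mertk, Csf1r, Trem2, Lyz2, Cd14 and Ms4a7 of the drawn macrophage markers and 7 of the 14 dendritic cell markers (Itgam, Cd74, H2-Ab1, H2-Aa, H2-Eb1, Zbtb46 and Ciita) have all Etv3-/- values above the Etv3+/+ values, and the other drawn markers overlap.

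Dendritic cell markers were present in all libraries. Zbtb46, a factor of conventional dendritic cells, was at 9945 ± 132 and 11463 ± 723 normalized counts, and Flt3 at 3714 ± 943 and 3769 ± 751. The most abundant markers of all lists were the class II genes Cd74, H2-Ab1 and H2-Aa, whose limma adjusted p-values were 0.394, 0.0949 and 0.115. Of 14 such markers 1 rose, Ciita, the class II transactivator (log2 fold change 1.33, limma adjusted p = 0.0380), against 0.876% of all genes tested. In edgeR 2 rose, Ciita and H2-Eb1, and in DESeq2 5 rose, these with H2-Aa, H2-Ab1 and Itgam. Of all 13813 genes tested 114 rose in edgeR and 636 in DESeq2. For 7 of the 14 the Etv3-/- values lay above without overlap, against 16.7% of all genes tested. The summed level of the 14 was 1180294 to 1604286 in Etv3+/+ and 2385046 to 3202430 in Etv3-/-. Cd74, H2-Ab1 and H2-Aa held most of it, at means of 527129, 247121 and 225320 in Etv3+/+ and 853963, 719932 and 533884 in Etv3-/-. The sort on high MHC class II also bears on these genes. Of the 14, 11 had a log2 fold change above 0 and 3 below, with -0.19 for Batf3 and -0.47 for Irf4. Summed levels of 12 B cell markers were 2181 to 2571 and 4754 to 7611, and those of 12 T and NK cell markers 10976 to 11061 and 3875 to 8149. Those of 12 monocyte markers were 115029 to 184490 and 43083 to 104167, and those of 12 neutrophil markers 53682 to 56592 and 15628 to 77048. Chil3 alone made up most of the monocyte sum, at 100380 and 167014 in Etv3+/+ and 25059, 63530 and 85623 in Etv3-/-. Of the 12 monocyte markers 4 had a log2 fold change above 0 and 8 below. Without overlap, Etv3-/- values lay above for 7 of 12 tested B cell markers and 2 of 12 monocyte markers. They lay below for 6 of 11 tested T and NK cell markers and 3 of 12 monocyte markers. All neutrophil markers overlapped. Over all genes tested 16.7% lay above and 19.3% below. Of the genes on these 4 lists 0 passed in limma. An unadjusted p under 0.05 was found for 6 B cell, 4 T and NK cell, 5 monocyte and 0 neutrophil markers. It was found for 2480 of all 13813 genes tested. In edgeR 0 passed, and in DESeq2 4 B cell and 2 monocyte markers (Ms4a6c and Treml4) did, all upward. For 8 basophil and mast cell and 8 erythroid markers 7 and 1 were tested and 0 passed in any of these tools. Their part in the complement values was not tested.

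The GC content of these genes and the GC trend of each library were read as well. GC content was 59.5% for C1qa, 57.4% for C1qb, 57.5% for C1qc, 56.3% for Cfp and 53.3% for C3, against a median of 49.7% over 13585 tested genes with a value. Across genes, which are not independent, a library's deviation correlated with GC content at a Spearman rho of -0.42 in Etv3+/+ replicate 2 and 0.41 in Etv3-/- replicate 3, and between -0.10 and 0.09 in the others. After a correction for GC content and length the log2 fold changes were 3.13 for C1qa, 1.90 for C1qb, 2.39 for C1qc, 1.62 for C3 and 2.67 for Cfp, and all 5 still passed. With Etv3+/+ replicate 2 and Etv3-/- replicate 3 both left out they were 2.62, 1.78, 2.79, 1.91 and 2.29, and 0 of the 5 passed in a limma fit of 1 against 2 libraries (all 5 at an unadjusted p under 0.05), where the lone library is assumed to vary like the others.

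The calls rested on few libraries. Without Etv3+/+ replicate 1 or 2, C1qc and Cfp passed and C1qa, C1qb and C3 did not. Without Etv3-/- replicate 1, 2 or 3 in turn 0 of the 5 passed (5 or 6 of the 8 genes at an unadjusted p under 0.05), where 0 to 7 genes of the whole table passed upward. The log2 fold changes in these 5 fits stayed within 2.91 to 3.68 for C1qa, 1.78 to 2.34 for C1qb, 2.31 to 2.88 for C1qc, 1.48 to 1.84 for C3 and 2.55 to 3.19 for Cfp. Because the groups of these genes do not overlap, their sign could not change when 1 library was left out.

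Neighbours of the C1q cluster were read for position. Within 250 kb, 4 other protein-coding genes had a row in the table. Zbtb40, a zinc finger gene 80.9 kb away, had 1239 and 1118 normalized counts in Etv3+/+ and 1297, 726 and 877 in Etv3-/- (log2 fold change -0.33, limma adjusted p = 0.641). Ephb2, Epha8 and Lactbl1 had no reads. Of the neighbours with a row, 1 was thus tested and 0 passed.

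The genes most like the mean C1q profile were sought by the root mean square difference of centred log2 values over the 5 libraries, among 11414 genes with a mean of 50 or more and a curated symbol, with the 9 complement genes left out. They were Cyp4f16 with a difference of 0.17, Pilra with 0.25, Axl with 0.27, Rasgef1b with 0.29 and Plbd1 with 0.29. For comparison, among the genes left out the difference was 0.23 for Cfp, nearer than all of these but Cyp4f16, 0.26 to 0.39 for the C1q chains themselves and 0.65 for C3. Cyp4f16, a cytochrome P450 gene, had 361 and 258 normalized counts in Etv3+/+ and 1500, 2020 and 2632 in Etv3-/-. Axl, a receptor for apoptotic cell ligands, had 4646 and 4232 against 20215, 22023 and 23693. The profile of properdin was thus closer to that of C1q than the profile of C3 was, in these 5 libraries and by this measure.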

How the data were processed

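RNA-seq of 5 libraries was analysed, 2 of Etv3+/+ and 3 of Etv3-/- dendritic cells, grouped by the genotype label. The authors deposited a signal, normalized counts for 27678 gene symbols. The submitters' processing notes name STAR 2.7.3a, Trimmomatic 0.36, Subread 1.6.3 with featureCounts, DESeq2 1.26.0 and build mm10, without roles or order, and the annotation and strand setting were not given in the sources used here. Per the labels' protocols libraries were made with SMART-Seq HT chemistry, in which PCR copies cannot be told apart.

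Values were whole multiples of 0.856 to 1.24 normalized counts per read, and 100% lay within 0.1 of a whole number of reads. A gene was tested when at least 2 libraries reached a normalized count of 10. The test was limma 3.58.1 (trend, R 4.3.3) on log2(normalized count + 1), two-sided, with genotype as the single term. Log2 fold changes refer to that scale, where the added 1 tends to lower those of low genes. As differences of mean logs they can also exceed the ratio of group means. For Cd5l the fitted change was 11.8-fold and the ratio of means 3.42. The fit was repeated with pseudocounts, filters or scalings changed, without trend, in edgeR 4.0.16 and DESeq2 1.42.0 on recovered reads, with a replicate block, and without each library. Added after seeing the data were a loess correction (span 0.3) for GC content and transcript length and the omission of 2 libraries. Positions, lengths and GC content came from GENCODE M21 (GRCm38) by symbol, with GC content for 98.3% of tested genes. Figures were drawn with matplotlib 3.10.9.

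The 9 genes and all lists were chosen with earlier results of these data known. Named genes were the 9, and of the other complement genes all that passed, with the 2 highest by mean and the 1 of largest absolute change per role. Also named were listed promoter factors, of which some are not reported here, markers that passed or were among the 3 highest by mean, and the 5 genes nearest the C1q profile; Itgam, Csf1r, Adgre1 and the other markers given with values were added after their values were seen.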

Additional observations from a re-analysis of the deposited data

How the results depend on the processing

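Over all genes, 121 higher and 44 lower calls became 44 higher in limma without trend, 70 lower with a pseudocount of 5, and 636 and 533 with DESeq2. They became 233 and 109 with the GC and length correction, and 6 and 1 without both Etv3+/+ replicate 2 and Etv3-/- replicate 3. Single omissions gave 0 to 73 higher and 0 to 7 lower. Among the 9 complement genes the 5 higher calls became 3 without a filter, 0 in limma without trend (5 at an unadjusted p under 0.05), 0 without those 2 libraries (5 at an unadjusted p under 0.05) and 0 to 2 in single omissions. Under the other settings they stayed at 5. Among the other complement genes the 1 higher call stayed at 1 in limma without trend, but there it was Cd46 and not Itgb2. It became 0 without a filter and without those 2 libraries, 3 with the GC and length correction (Itgb2, Itgam and Cd46), 4 with DESeq2 (the same and Scarf1) and 0 to 1 in single omissions. The replicate block gave 118 lower and 151 higher calls over all genes, and 5 and 1 higher calls in the complement lists as before. Deviations from the group means correlated at -0.0342 and 0.0386 between libraries of the same number. With 2 Etv3+/+ libraries, their deviations are mirror images, so these are not separate checks. Whether the numbers mark shared animals, cultures or batches cannot be told from these correlations. Replicate 3 exists in Etv3-/- alone and so adds nothing to the difference under the block.

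Without Etv3+/+ replicate 2 and Etv3-/- replicate 3, log2 fold changes turned to -0.0616 for C5ar1, -0.0538 for C8g, 0.40 for Cd55, -0.16 for Cfi and -2.71 for Colec11. With the block they turned to 0.0738 for Cd55 and -0.15 for Colec11, and with the GC and length correction to 0.23 for Cr1l. Single omissions gave -1.67 to 0.0368 for C4a, -1.50 to 0.0738 for Cd55, -0.27 to 2.09 for Cfi and -1.45 to 3.66 for Colec11. None of these genes passed in limma, and the cause was not tested. Few reads lie behind low genes such as Cfb, C4a, Cfi, Fcna and Colec11.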
